A study of Mus musculus with 6 samples.

Results

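This report describes 4 iron handling genes, *Fth1*, *Tfrc*, *Hmox1* and *Slc11a2*, among the 4864 genes analysed in RNA-seq of adipocytes differentiated from mouse adipose-derived stem cells (ADSCs). The 4 genes were selected on their measured counts and FPKM values in these libraries with earlier results known, so their differences between the groups are given as a description and without a test. ADSCs are the adipocyte precursors of white fat, here from subcutaneous adipose tissue of wild-type mice, and the study's methods describe their isolation from male C57BL/6J mice. The differentiation medium of this cell model, shared by both groups, holds dexamethasone, insulin, 3-isobutyl-1-methylxanthine, indomethacin and triiodothyronine. By the labels, the Control group (n = 3) underwent adipocyte differentiation alone and the NJT-2 group (n = 3) differentiation with NJT-2. The study describes Control as vehicle, and the timing of NJT-2 for the sequenced cells is not given in the sources used here. NJT-2 is the study's name for saikosaponin A, a terpenoid tested there as a ligand of the nuclear receptor PPARγ. The study's methods give day 8 for harvest, and its results give 200 nM as the NJT-2 dose chosen for activity tests in cells. The labels of these libraries give neither. The labels do not say whether the 3 libraries of a group come from separate mice or cultures, so the spread given here may be technical.

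Ferritin is a hollow shell that stores iron inside the cell. *Fth1* encodes its heavy chain, which oxidizes iron for storage. *Tfrc* encodes transferrin receptor 1, which takes up iron bound to transferrin, and *Slc11a2* encodes DMT1, which carries ferrous iron out of the endosome into the cytosol. *Hmox1* encodes heme oxygenase 1, the inducible enzyme that opens the heme ring and frees its iron. The iron regulatory proteins bind a short stem loop, the iron-responsive element, when iron is scarce. Bound in a 5' untranslated region (UTR) it blocks translation, as for ferritin, and bound in the 3' UTR it protects the mRNA of *Tfrc* from decay. Brown and beige adipocytes are rich in mitochondria and need iron for heme and iron-sulfur proteins.

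The stem loops are shown because they set apart the members that this system can reach. UTRs of the GENCODE M21 transcripts were searched on the transcript strand for a C, a first arm of 5 bases, the loop CAGTGN with any base but G at its end, and a second arm of 5 bases. At least 4 of the 5 base pairs between the arms had to form, with G to U pairs allowed. In each line the 17 bases of the match are in capitals and the 4 flanking bases on each side in lower case.
Fth1 5' UTR: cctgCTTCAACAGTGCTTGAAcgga
Tfrc 3' UTR, element 1: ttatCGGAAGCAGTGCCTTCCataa
Tfrc 3' UTR, element 2: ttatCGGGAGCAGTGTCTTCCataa
Tfrc 3' UTR, element 3: atatCGGAGACAGTGATCTCCatat
Tfrc 3' UTR, element 4: ttatCGGGAACAGTGTTTCCCataa
Slc11a2 3' UTR: ccatCAGAGCCAGTGTGTTTCtatg

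The *Fth1* match lies in exon 1 of 4 at chr19:9982738-9982754 of GRCm38, on the + strand. The 4 *Tfrc* matches lie in exon 19 of 19 on the + strand, at chr16:32631225-32631241, chr16:32631604-32631620, chr16:32631669-32631685 and chr16:32631716-32631732. The *Slc11a2* match, which forms 4 of the 5 pairs, lies in exon 16 of 16 at chr15:100395159-100395175 on the - strand, and only 1 of the gene's annotated transcripts carries it. The counts are per gene and cannot separate this transcript from the *Slc11a2* transcripts without it. No match was found in the UTRs of *Hmox1*. Matches with all 5 pairs were found in the 5' UTR of 0.102% and the 3' UTR of 0.488% of 22527 protein-coding genes, and matches with at least 4 pairs in 0.653% and 3.39%.

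**Figure D1:**
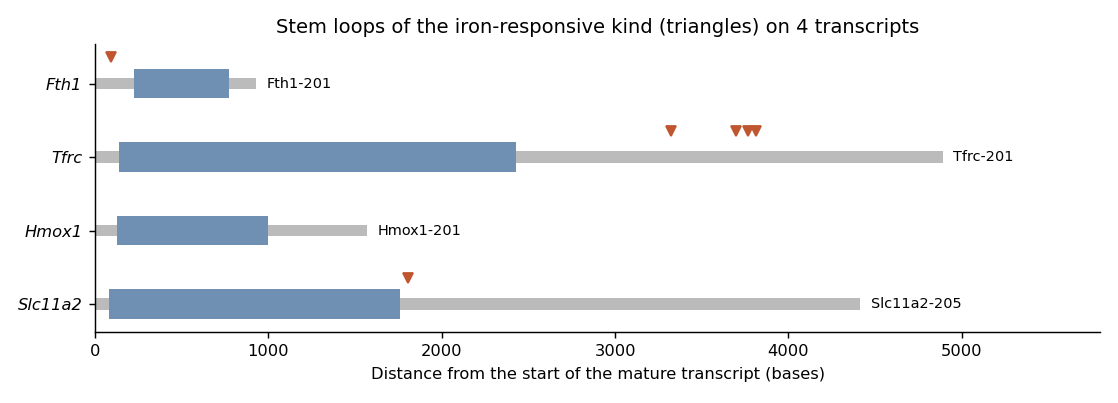
Map of 1 transcript of each gene, to scale, with the distance from the transcript start in bases on the x axis, coding sequence as wide bars, untranslated regions as thin bars and stem loop matches as triangles. *Fth1* has 1 match before its coding sequence, *Tfrc* has 4 and *Slc11a2* has 1 after it, and *Hmox1* has none.

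The counts of the analysed genes summed to between 16093037 and 28929673 per library, which is 27.7% to 32.5% of the library totals implied by the FPKM values. The table used here ends within the Ensembl gene numbers, so ferritin light chain *Ftl1*, the iron exporter *Slc40a1* and the iron regulatory proteins *Aco1* and *Ireb2* were not analysed here. Control replicate 1 and NJT-2 replicate 2 stood apart from the other libraries of their groups. Their correlations of log2 CPM within the group ran from 0.751 to 0.874, against 0.952 and 0.989 for the remaining pairs. CPM is a count scaled to the library's total over the tested genes, adjusted by TMM normalization. Short and long transcripts were not represented alike in all libraries. The correlation of a gene's level in a library, relative to its mean over all libraries, with the length of its longest transcript was -0.424 and -0.426 in Control replicates 1 and 2 and between 0.177 and 0.398 in the others (Spearman, across 3705 genes, which are not replicates). The adipocyte markers were low in Control but not absent, with *Lpl*, which encodes lipoprotein lipase, at 55.1 to 78.8 FPKM. *Adipoq*, which encodes adiponectin, was at 0.38 to 0.50 FPKM in Control and 22.0 to 64.6 FPKM in NJT-2. The 10 adipocyte markers analysed summed to 82.5 to 105.5 FPKM in Control. In NJT-2 replicates 1, 2 and 3 they summed to 1720, 489 and 1377 FPKM, so replicate 2 was the lowest of its group. In these cultures a smaller share of a cell type and less RNA per cell of that type cannot be told apart.

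*Fth1* was lower with NJT-2. The table places it (ENSMUSG00000024661) on chr19:9980598-9985092 of GRCm38, on the + strand. It had 7961, 5861 and 3150 FPKM in Control replicates 1, 2 and 3, and 1725, 1497 and 1838 FPKM in NJT-2 replicates 1, 2 and 3. FPKM is a count scaled to the length of the gene and to the total of the library. The lowest Control library was above the highest NJT-2 library, and the Control libraries were spread far more widely (5657 ± 2412 FPKM against 1687 ± 173 FPKM, SD, n = 3 each). The log2 fold change of NJT-2 against Control was -2.06 with a standard error of 0.55, or 4.17-fold lower. *Fth1* had the highest mean FPKM of all 4864 genes and ranked first in 4 libraries, while in Control replicate 1 and NJT-2 replicate 2 it ranked at number 3. The FPKM values were computed with a length of 3469 bases for *Fth1*, whereas the transcript drawn in the map has 929 bases. Processed pseudogenes of the ferritin heavy chain are annotated, and how the authors' counting divided reads among such copies is not known.

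As a share of the counts in the table, which covers only part of each library, *Fth1* was also lower with NJT-2. It held 9.97% of these counts in Control replicate 1 (95% Clopper-Pearson interval 9.96% to 9.98%), 6.26% in replicate 2 (6.26% to 6.27%) and 3.44% in replicate 3 (3.44% to 3.45%). In NJT-2 replicates 1, 2 and 3 the shares were 1.95% (1.95% to 1.96%), 1.63% (1.62% to 1.63%) and 2.07% (2.07% to 2.08%). The intervals cover counting error only. The difference of the group means was -4.67 percentage points, against an SD of 3.27 within Control and of 0.231 within NJT-2. Without Control replicate 1 the difference was -2.97 percentage points. Against the whole-library totals implied by the FPKM values, the shares were 1.09% to 2.76% in Control and 0.519% to 0.638% in NJT-2. *Fth1* had the most counts of the 4864 genes in 5 of the 6 libraries, the exception being NJT-2 replicate 2.

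The size of the *Fth1* difference depended on the scaling and on the libraries that stood apart. The log2 fold change was -1.65 with limma on log2(FPKM + 1) and -1.75 in edgeR with the library totals implied by the FPKM values. It was -2.04 in DESeq2 and -2.06 in edgeR with upper-quartile factors. Without Control replicate 1 the log2 fold change was -1.43, and without both Control replicate 1 and NJT-2 replicate 2 it was -1.35. The length trend moved with *Fth1* among the Control libraries, since the short-transcript trend was present in replicates 1 and 2, which had the most *Fth1*. With each library's length trend taken out, the log2 fold change was -1.55. That value came from limma on log2 CPM and not from edgeR, so the method changed as well as the trend. The trend was taken at the length of the longest annotated transcript, 2062 bases for *Fth1*, against 929 bases for the transcript in the map. The part of the length trend in the *Fth1* value was not tested.

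**Figure D2:**
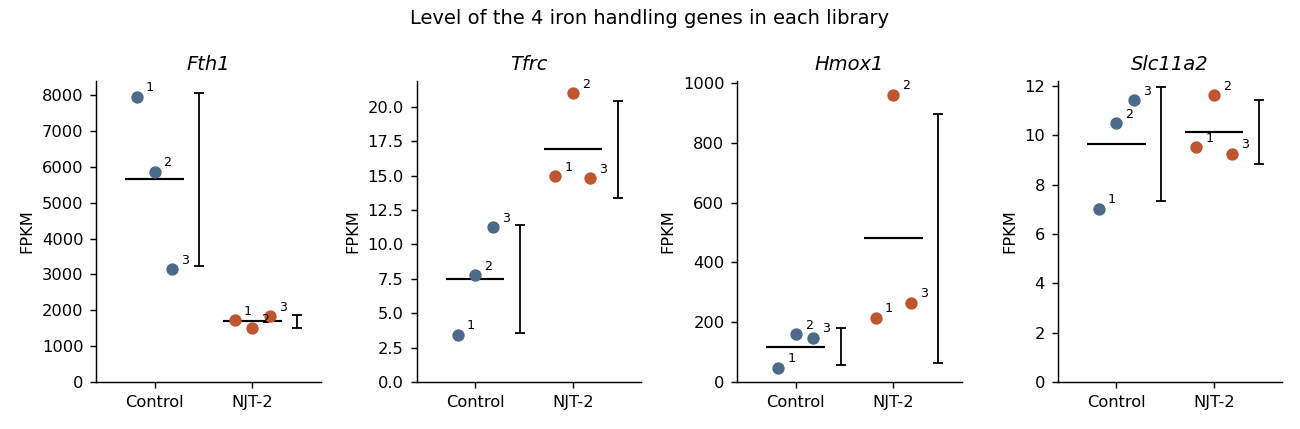
FPKM (y axis) of each gene in each library, with Control in blue and NJT-2 in orange, the replicate number beside each point, a line at the group mean and a bar of ± 1 SD. The groups do not overlap for *Fth1*, *Tfrc* and *Hmox1*, and overlap for *Slc11a2*.

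*Tfrc* was higher with NJT-2. It lies on chr16:32608920-32632794 (ENSMUSG00000022797) and had 3.43, 7.77 and 11.2 FPKM in Control replicates 1, 2 and 3 and 14.9, 20.99 and 14.8 FPKM in NJT-2 replicates 1, 2 and 3. Each NJT-2 library was above each Control library. The means were 7.48 ± 3.91 FPKM in Control and 16.9 ± 3.54 FPKM in NJT-2 (SD, n = 3 each), and the log2 fold change was 1.11 with a standard error of 0.38, or 2.16-fold higher. Control replicate 1 was the lowest library and NJT-2 replicate 2 the highest. Without both of them the log2 fold change was 0.64.

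*Fth1* and *Tfrc* are the textbook pair of storage and uptake, and their ratio within a library does not depend on the scaling between libraries. The iron regulatory proteins act on ferritin through translation, which mRNA levels do not measure, so the ratio is not read as a measure of iron. It does set a short transcript against a long one, so the length trend enters it. With the trend taken out, the log2 fold changes were -1.55 for *Fth1* and 0.87 for *Tfrc*, against -2.06 and 1.11 as reported. The values without the trend came from limma on log2 CPM and the reported ones from edgeR, so the method differs as well. The FPKM of *Fth1* was 2321, 754 and 280 times that of *Tfrc* in Control replicates 1, 2 and 3, and 115.6, 71.3 and 124 times in NJT-2 replicates 1, 2 and 3. On the log2 scale the ratio was 9.62 ± 1.53 in Control and 6.66 ± 0.43 in NJT-2 (SD, n = 3 each), a difference of -2.97, which was -2.19 without Control replicate 1 and -3.71 without Control replicate 3. The ratio was lower in each NJT-2 library than in each Control library, and the order of the 6 libraries was the reverse of their order in *Tfrc*, its denominator.

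**Figure D3:**
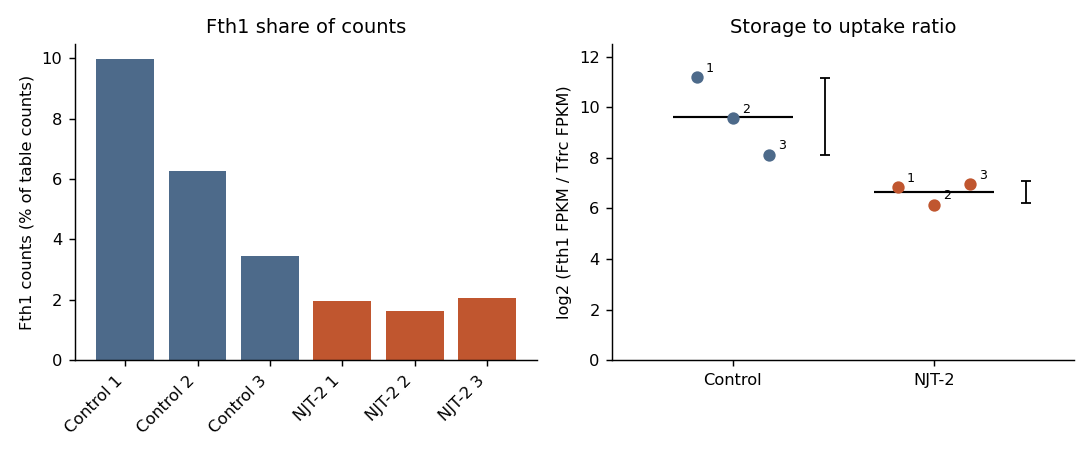
Left, *Fth1* counts as a percent of all table counts (y axis) in each library; right, log2 ratio of the FPKM of *Fth1* and *Tfrc* (y axis), with the replicate number beside each point, group means as lines and bars of ± 1 SD. The share runs from 1.63% in NJT-2 replicate 2 to 9.97% in Control replicate 1, and the ratio is lower in every NJT-2 library.

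*Slc11a2* did not separate the groups. It lies on chr15:100387898-100424092 on the - strand (ENSMUSG00000023030) and had 7.03, 10.5 and 11.4 FPKM in Control replicates 1, 2 and 3 and 9.51, 11.6 and 9.26 FPKM in NJT-2 replicates 1, 2 and 3. The NJT-2 values fell inside the Control range apart from replicate 2, which was the highest of all. The log2 fold change was -0.07 with a standard error of 0.29, and on the FPKM scale the NJT-2 mean was the higher one (10.1 ± 1.31 against 9.65 ± 2.31 FPKM, SD, n = 3 each), so no direction is given for this gene. On the FPKM scale *Slc11a2* was above *Tfrc* in each Control library, by little in replicate 3, and below it in each NJT-2 library. Both were below *Hmox1*, and *Hmox1* below *Fth1*, in all 6 libraries. The gene *Gm5475* on the opposite strand overlaps the 5' end of *Slc11a2* in GENCODE M21, and whether the counting used the strand is not given in the sources used here.

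*Hmox1* was higher with NJT-2, and by far the most in 1 library. It lies on chr8:75093621-75100589 (ENSMUSG00000005413) and had 47.1, 158.7 and 147.8 FPKM in Control replicates 1, 2 and 3 and 214.9, 961 and 265 FPKM in NJT-2 replicates 1, 2 and 3. All NJT-2 libraries were above all Control libraries, and NJT-2 replicate 2 was far above the other two. The means were 117.9 ± 61.6 FPKM in Control and 480 ± 417 FPKM in NJT-2 (SD, n = 3 each), so the SD in NJT-2 was close to the mean. The log2 fold change was 2.01 with a standard error of 0.68. Without NJT-2 replicate 2 it was 0.91, and without both this library and Control replicate 1 it was 0.64. *Hmox1* held 0.527% of the table's counts in NJT-2 replicate 2 and 0.0298% to 0.151% in the other libraries.

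**Figure D4:**
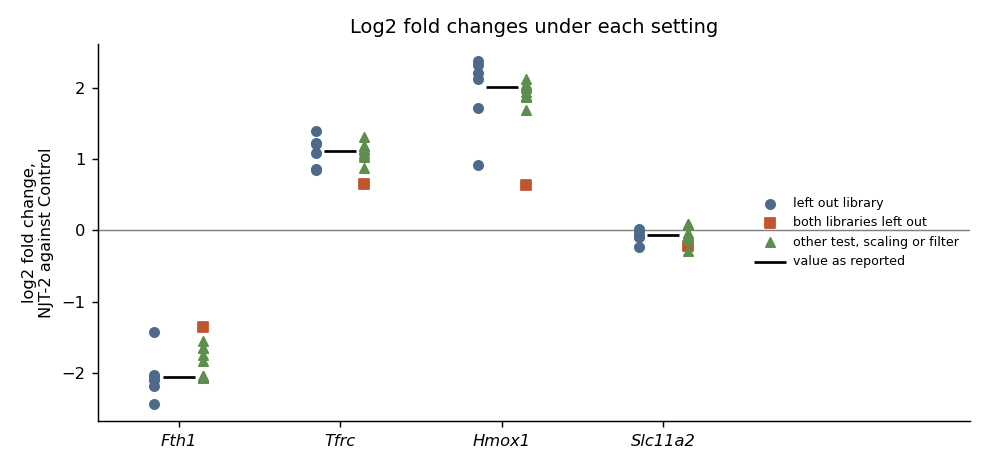
Log2 fold change of NJT-2 against Control (y axis) of each gene as reported (black line), with 1 library left out (circles), with Control replicate 1 and NJT-2 replicate 2 both left out (squares) and under other tests, scalings and filters (triangles). *Fth1* stays below 0 and *Tfrc* and *Hmox1* above it, with *Hmox1* between 0.64 and 2.37, and *Slc11a2* lies on both sides of 0. The groups of *Fth1*, *Tfrc* and *Hmox1* do not overlap, so leaving out libraries says little about their sign.

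The quasi-likelihood test of edgeR was run on 3705 genes whose FPKM averaged 0.5 or more. A call needed an adjusted p (Benjamini-Hochberg) below 0.05 together with a change of more than 1 on the log2 scale. Calls in the higher direction made up 0.567% of the tested genes, and calls in the lower direction 0.135%. Leaving out Control replicate 1 or 2 left 0 calls in the higher direction, against 56 without NJT-2 replicate 2. In log2 CPM the groups did not overlap for 15.1% of the tested genes in the higher direction and for 14% in the lower direction, beside 2 and 1 of the 4 genes. As this contrast chose the 4 genes, nothing is read from these counts.

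The wider set holds 91 other genes of iron and heme handling, of which 26 were in the table and 23 passed the filter. Among these, 9 had a positive and 14 a negative log2 fold change, with a median of -0.26 against 0.02 over all tested genes. Only *Hspa9* was called, and it was higher. Groups did not overlap for 2 genes in the higher and 3 in the lower direction, which is no larger a share than among all tested genes.

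Among the genes of iron uptake, 7 were tested and none was called. *Steap1*, of a family of metalloreductases, had 54.0, 52.9 and 33.2 FPKM in Control replicates 1, 2 and 3 and 11.9, 19.4 and 15.3 FPKM in NJT-2 replicates 1, 2 and 3. The groups of *Steap1* did not overlap, and its log2 fold change of -1.83 (standard error 0.44) did not pass adjustment over all genes (adjusted p = 0.134 in edgeR). DESeq2 on the same genes called it lower. *Scara5*, a receptor for ferritin, was at 5.03, 15.8 and 25.5 FPKM in Control and 66.9, 12.1 and 55.7 FPKM in NJT-2, a log2 fold change of 1.47 ± 0.66 (SE) with an edgeR adjusted p of 0.29. Its low value with NJT-2 was in replicate 2, inside the Control range. *Slc39a14*, a zinc and iron transporter, was at -0.13 ± 0.60 (SE) on the log2 fold change scale. It had 16.8, 76.5 and 26.1 FPKM in NJT-2 replicates 1, 2 and 3, against 25.0 to 59.1 FPKM in Control, so its value rested on NJT-2 replicate 2.

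For iron export 1 gene was tested, *Cp*, which encodes the plasma ferroxidase ceruloplasmin. It ranged from 3.01 to 26 FPKM in Control and had 5.54, 32.6 and 4.11 FPKM in NJT-2 replicates 1, 2 and 3, so NJT-2 replicate 2 again differed from the other two. Of the genes of iron regulation, *Bach1*, a heme-binding repressor of *Hmox1*, had 1.24, 5.33 and 10.9 FPKM in Control and 9.82, 20.0 and 13.2 FPKM in NJT-2. The groups overlapped, and *Bach1* was not called (log2 fold change 1.30 ± 0.62, SE, edgeR adjusted p = 0.3). *Epas1*, which encodes HIF-2α, was lower in each NJT-2 library on the log2 CPM scale with a log2 fold change of -0.75 (adjusted p = 0.256 in edgeR), but not in FPKM, where Control replicate 1 lay between NJT-2 libraries. *Smad4*, a mediator of BMP signals, had a log2 fold change of 0.77 (adjusted p = 0.333 in edgeR).

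Heme synthesis was covered by *Cpox* and *Fech*, the enzymes of the oxidation of coproporphyrinogen and of iron insertion. Their log2 fold changes were 1.03 (standard error 0.67) and 0.52 (standard error 0.34), and neither was called. The other heme oxygenase gene, *Hmox2*, whose product is constitutive, had 15.9 FPKM in Control and 15.1 FPKM in NJT-2 on average, with a log2 fold change of -0.26 ± 0.32 (SE). The value was -0.36 ± 0.45 for *Blvra*, which encodes the biliverdin reductase that acts after heme oxygenase, and -0.93 ± 0.45 for *Slc46a1*, a folate and heme carrier. None of these 3 was called, and all 3 had the opposite sign to *Hmox1*.

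Mitochondrial iron handling and iron-sulfur cluster assembly had 7 tested genes. *Hspa9*, which encodes mortalin, the mitochondrial chaperone that helps to hand over iron-sulfur clusters and also imports proteins, rose with NJT-2. It had 44.8, 72.3 and 75.0 FPKM in Control and 277, 240 and 253 FPKM in NJT-2. This was a log2 fold change of 1.86 ± 0.30 (SE) with an edgeR adjusted p of 0.0471, and *Hspa9* was higher in 3 of 3 NJT-2 libraries. The call held without NJT-2 replicate 2 and was lost without any other single library, with an edgeR adjusted p between 0.0867 and 0.357. Over all alternatives the adjusted p ran from 1.29e-10 in DESeq2 to 0.357. The other 6 had no call, among them *Glrx5* (log2 fold change -1.31, standard error 0.65) and *Isca2* (0.13, standard error 0.49), both of iron-sulfur assembly.

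**Figure D5:**
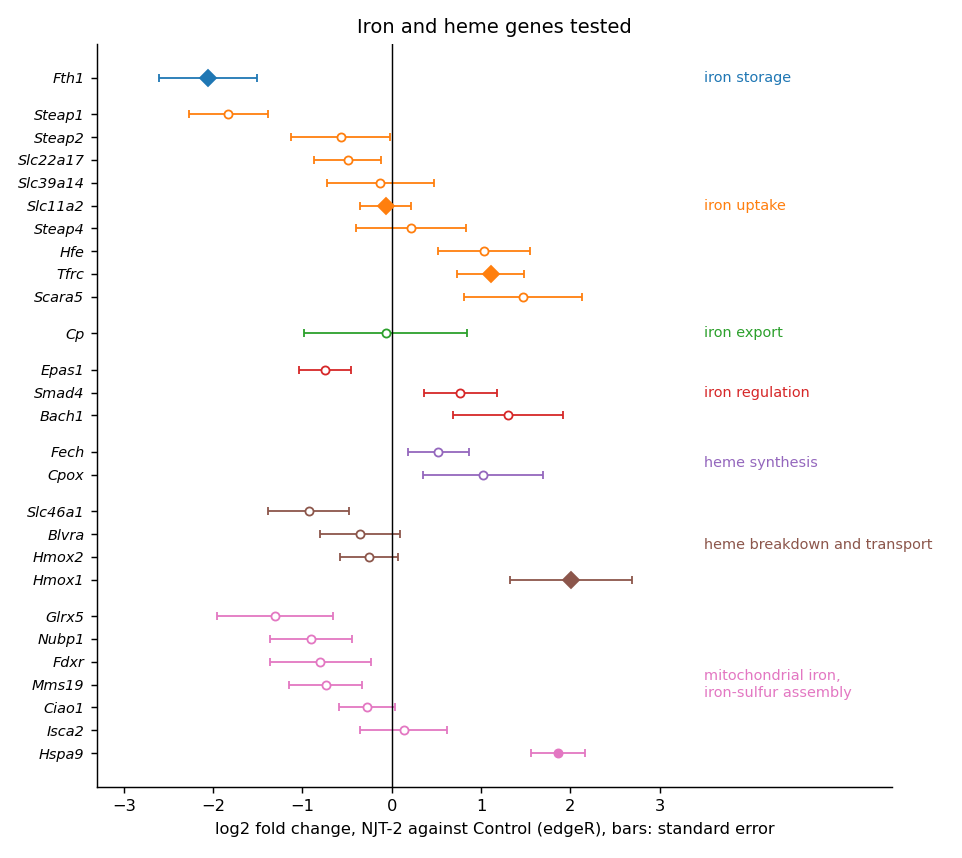
Log2 fold change of NJT-2 against Control with its standard error (x axis) for the tested iron and heme genes, grouped by role; diamonds are the 4 genes described here, a filled circle is a called gene and open circles are genes not called. *Hspa9*, at 1.86, is the called gene, and within iron uptake the values run from -1.83 for *Steap1* to 1.47 for *Scara5*.

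*Fth1* and *Hmox1* are also known targets of the oxidative stress factor NRF2. Of 9 genes of the oxidative stress response that were tested, 4 had a positive and 5 a negative log2 fold change and none was called. *Sqstm1*, which encodes the autophagy receptor p62, had 51.0, 96.7 and 85.4 FPKM in Control and 214.8, 321 and 227.7 FPKM in NJT-2 (log2 fold change 1.59 ± 0.35, SE, edgeR adjusted p = 0.102). *Hspb1*, a small heat shock protein gene, had a log2 fold change of -1.44 (adjusted p = 0.161 in edgeR), and *Mgst1*, a microsomal glutathione transferase gene, of 0.96 (adjusted p = 0.314 in edgeR).

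*Tfrc* and *Hmox1* are known to respond to low oxygen as well. Of the 7 low oxygen genes tested none was called. In 6 of the 7 the highest FPKM was in NJT-2 replicate 2, which also had the highest *Hmox1*, the exception being *Hif1a*. That library stood apart, and how many of all tested genes were highest in it was not counted, so nothing is read from this. *Ndrg1* was at 183 FPKM in that library and at 3.27 and 3.18 FPKM in NJT-2 replicates 1 and 3, against 7.43 to 14.4 FPKM in Control. *Vegfa*, the gene of the angiogenic growth factor, was at 341 FPKM there and at 56.9 and 56.6 FPKM in the other NJT-2 libraries, against 18.1 to 74.1 FPKM in Control. *P4ha1* and *P4ha2*, of collagen prolyl hydroxylase, had log2 fold changes of 0.19 and -0.44. The part of these changes in the *Hmox1* value was not tested.

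Macrophages recycle heme iron and are rich in *Hmox1*, so their markers are given beside it. Of 21 markers 5 were in the table and all 5 were above 0 in each library. They summed to 10.5 to 13.7 FPKM in Control and to 59.9, 33.9 and 45.9 FPKM in NJT-2 replicates 1, 2 and 3. *Adgre1*, which encodes F4/80, rose from 1.60 FPKM to 16.5 FPKM on average (log2 fold change 3.23, adjusted p = 0.0408 in edgeR), while *Cd68* had a log2 fold change of 1.79 (adjusted p = 0.082 in edgeR). The call of *Adgre1* was lost without any single library other than NJT-2 replicate 2 (edgeR adjusted p from 0.0851 to 0.3), and over all alternatives its adjusted p ran from 1.83e-08 in DESeq2 to 0.3. The markers did not share an order among the NJT-2 libraries. *Adgre1*, *Cd68* and *Msr1* were lowest in replicate 2, and *Csf1r* and *Cybb* were highest there, at 4.56 and 2.61 FPKM (the last 3 genes were named after their values were seen). Of 13 red cell markers 4 were in the table, with sums of 0.05 to 0.84 FPKM. The hemoglobin genes were not among these, so the presence of red cell RNA was not tested. Of 20 adipocyte markers 10 were tested and 6 called higher, beside 0.567% of all tested genes. Of 18 progenitor and fibroblast markers 6 were tested and 1 called lower, beside 0.135% of all tested genes. Without Control replicate 1 or 2, 0 genes were called higher. The progenitor and fibroblast markers summed to 1163 to 1468 FPKM in Control and to 499.7 to 522 FPKM in NJT-2. Most of the sum in Control replicate 1 was *S100a4*, at 1241, 382 and 165 FPKM in Control and 34.6 to 56.1 FPKM in NJT-2. *Col1a1*, of type I collagen, had a log2 fold change of -0.21. It had 118, 510 and 691 FPKM in Control and 376 to 408 FPKM in NJT-2. *Dcn*, named after its values were seen, had 29.8, 180 and 206 FPKM in Control and 28.0 to 46.3 FPKM in NJT-2. All 6 had a negative log2 fold change, and groups did not overlap for 3, beside 14% of all tested genes. *Lpl* and *Cd36*, the adipocyte markers with the highest mean FPKM, had log2 fold changes of 2.04 and 8.08. The part of these cell types in the *Fth1* and *Hmox1* values was not tested.

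The genes with the most similar pattern were found among 1454 genes whose FPKM averaged 10 or more, by Pearson's correlation of log2 CPM over the 6 libraries. With only 6 libraries in 2 groups, which all genes share, many genes reach high values, and these are a description. For *Fth1* they were *Prdx2*, *Ubtd1* and *Hspb1* (each r = 0.997). *Prdx2*, which encodes a peroxiredoxin, had 158.3, 114.6 and 67.7 FPKM in Control and 44.4, 38.9 and 45.8 FPKM in NJT-2. For *Tfrc* they were *Pitrm1* (r = 0.996), *Tbc1d15* (r = 0.995) and *Dnajb9* (r = 0.993), the last encoding a chaperone of the endoplasmic reticulum. For *Hmox1* they were *Ifrd1* (r = 0.996), *Ddit4* (r = 0.994) and *Tars* (r = 0.987), and *Ddit4*, an inhibitor of mTORC1, was at 177 FPKM in NJT-2 replicate 2 against 87.7 and 90.9 FPKM in the other two. For *Slc11a2* they were *Lrrc8a* (r = 0.996), *Nfkb2* (r = 0.967) and *Slc39a6* (r = 0.966), a zinc transporter gene.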

How the data were processed

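Libraries of mRNA, 3 of Control and 3 of NJT-2 cells, were analysed. Reads were mapped by the authors with HISAT2 on GRCm38, and the submitters' processing notes list cutadapt 1.9, HISAT2 2.2.1 and StringTie 2.1.6. The counting tool and annotation release are not given in the sources used here. The deposited table holds raw counts per gene and FPKM values that the authors computed. The copy used here has 4865 gene lines, of which the last was incomplete and left out. All 6 count and 6 FPKM columns matched a library by name. The FPKM values imply library totals of 58108834 to 89137435 reads.

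Counts were tested in R 4.3.3 with edgeR 4.0.16 (TMM, quasi-likelihood test) over genes whose FPKM averaged 0.5 or more. Log2 CPM used a prior count of 2. A standard error is the log2 fold change over the square root of F. DESeq2 1.42.0 and limma 3.58.1, other scalings and filters, a replicate block and leaving out libraries were alternatives. The setting with the length trend taken out was fitted with limma on log2 CPM. No pair of libraries agreed within sampling noise.

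The members and lists were chosen with earlier results of these data known. Named genes were the 4 members, called list genes, the 3 most abundant genes and the gene with the largest change of each list, the 2 most abundant markers of each cell type and the 3 genes most like each member. Sequences and exons came from GENCODE M21, which holds all 4864 identifiers.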

Additional observations from a re-analysis of the deposited data

How the results depend on the processing

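The number of called genes depended on the setting, from 21 higher and 5 lower. DESeq2 called 163 higher and 126 lower, and 255 and 227 were called without both Control replicate 1 and NJT-2 replicate 2, a choice made after seeing the data. Lower calls were 9 with upper-quartile factors, with *Fth1* left out of the scaling and with no filter, 8 with a minimum mean FPKM of 1 and with the length trend taken out (also chosen after seeing the data), and 10 with limma on log2(FPKM + 1) and on log2(FPKM + 0.1). Leaving out each library gave 0 to 56 higher and 0 to 19 lower calls. Both highest numbers were found on leaving out NJT-2 replicate 2; removing any other library left at most 2 calls per direction, with 421 genes at an unadjusted p under 0.05 in edgeR without Control replicate 2. *Hspa9*, the 1 called gene of the iron and heme lists, was lost (0 calls) with upper-quartile factors, with the totals implied by FPKM and with no filter. DESeq2 also called 1 lower, and without both libraries 2 were called higher and 3 lower. The genes called without both libraries were *Cp*, *Steap1*, *Scara5*, *Slc39a14* and *Hspa9*. Leaving out 1 library gave 0 to 1 called higher and 0 lower. The cause was not tested.

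The libraries showed no clear pairing by replicate number, and so few libraries cannot exclude one. Deviations from the group means correlated at 0.179, 0.032 and -0.207 for numbers 1, 2 and 3, and the deviations of Control replicate 3 correlated best with those of NJT-2 replicate 2 (0.223). With the replicate block 43 genes were called higher and 14 lower, and 0 of the iron and heme lists.

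The log2 fold changes of *Fth1*, *Tfrc* and *Hmox1* kept their sign in every setting run. These genes were chosen on the same values and their groups do not overlap, so leaving out libraries says little about the sign. Without both libraries they were -1.35, 0.64 and 0.64, and without 1 library they ran from -2.43 to -1.43, 0.85 to 1.39 and 0.91 to 2.37. *Slc11a2* ran from -0.23 to 0.02 without 1 library and from -0.29 to 0.09 otherwise. FPKM scaling and the implied totals moved the median of all genes from 0.02 to between 0.14 and 0.17. The *Fth1* share fell by 1.38 percentage points of the implied totals, since these hold more reads, and the difference in the share of table counts ran from -6.23 to -2.97 without 1 library. The *Fth1* to *Tfrc* log2 ratio differed by -3.71 to -2.19. Genes without overlap numbered 589 to 990 higher and 577 to 1024 lower with 1 library fewer. With 3 libraries a group, the spread between them and not the depth limits these values.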

Other observations

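Of the iron and heme genes in the table, *Cd163*, *Tmprss6* and *Alas2* were below the expression filter. *Cd163*, which encodes the macrophage receptor for hemoglobin bound to haptoglobin, had 0, 0 and 6 counts in Control and 36, 15 and 22 in NJT-2. *Alas2*, the heme synthesis enzyme of red cells, had 14, 4 and 0 counts in Control and 65, 4 and 57 in NJT-2.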
